A study of Mus musculus with 6 samples.

Results

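Potassium channels carry potassium ions out of the cell and so pull the membrane potential towards negative values. They share a pore whose narrowest stretch, the selectivity filter, is built from a short conserved sequence, and they differ in what opens them: inward rectifiers pass current near the resting potential, tandem-pore channels leak, voltage-gated channels open on depolarization, and calcium-activated channels open when cytosolic calcium rises. Auxiliary subunits have no pore of their own and alter the channels they bind. In leukocytes, calcium-activated and voltage-gated potassium channels are known for keeping the membrane negative during calcium entry.

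The 10 potassium channel genes described here were taken by symbol from the 41388 genes in the tables: Kcnj2, Kcnj15, Kcnab2, Kcne3, Kcnq1, Kcnk6, Kcnk13, Kcnn4, Kcna3 and Kcnma1. All 10 matched exactly 1 Ensembl identifier. Neutrophils from the bone marrow of C57BL/6 mice were loaded with 250 nM DIBAC4(3), a dye that reports membrane potential, and all of them then received 100 nM ionomycin, a calcium ionophore. A depolarized and a polarized population were sorted between 2 and 4 minutes later, 20000 cells of each, which gave 3 depolarized and 3 polarized libraries in 3 biological replicate pairs. The pairs are named A, B and C here, in the order of the code that the titles of a pair share. No unstimulated library was analysed here, and the number of mice per library is not stated in the labels. In bulk RNA of this kind, fewer cells of a type and less RNA per cell cannot be told apart.

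The tables held 16904969 to 20381489 counts per library, with 15527 to 16005 genes at 1 count or more. The neutrophil markers S100a8, S100a9, Retnlg, Ly6g, Csf3r, Cxcr2, Mmp8 and Mmp9 together reached 161559 to 181121 CPM (counts scaled to the library total) in depolarized and 181953 to 221974 CPM in polarized libraries, so the labelled cell type was present throughout. Markers of the early neutrophil stage (7 of 8 listed genes in the tables) summed to 15.8 to 30.5 CPM in depolarized libraries, against 62.2, 113 and 354 CPM in polarized libraries A, B and C. Of these 7, 6 were called lower in depolarized cells, against 0.241% of all tested genes. No listed marker of any cell type was at 0 in all 6 libraries. The 6 late-stage markers summed to 4895 to 5174 CPM in depolarized and 3631 to 4354 CPM in polarized libraries, and 0 of them were called. Most of each sum was Cxcr2, which is also among the neutrophil markers above. The groups overlapped for Cxcr2, Csf1 and Wfdc17. They did not overlap for Cd101, Il1b and Ccrl2, with the depolarized libraries above, as for 7.28% of all tested genes.

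The pore-forming members were recognisable in the reference by the codons of the selectivity filter, and the stretches below are shown because they set apart the pore genes, expressed and silent alike, from the 2 auxiliary members. Each line gives 60 coding bases, 5′ to 3′ on the sense strand, from GENCODE M21 transcripts (GRCm38). Capitals mark 15 bases that match, in frame, ACNNNNGGNTANGGN, ACNNNNGGNTTNGGN or ACNNNNGGNCTNGGN, the filter codons in the variants searched. The first of these lines is Kcnj2 on chr11:111072177-111072236 (plus strand), and Kcnk6, whose protein has a pair of pore domains, lies on chromosome 7 on the minus strand with its first stretch split by an intron and the second at chr7:29225521-29225580. Kcnn4 is at chr7:24379168-24379227 (plus strand) and Kcna3 at chr3:107037581-107037640 (plus strand).
Kcnj2: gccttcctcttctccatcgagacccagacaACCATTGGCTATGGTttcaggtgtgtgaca
Kcnk6 first pore: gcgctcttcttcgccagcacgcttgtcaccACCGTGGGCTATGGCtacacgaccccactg
Kcnk6 second pore: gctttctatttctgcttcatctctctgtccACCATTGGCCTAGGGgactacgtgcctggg
Kcnn4: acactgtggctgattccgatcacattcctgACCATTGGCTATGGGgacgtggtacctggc
Kcna3: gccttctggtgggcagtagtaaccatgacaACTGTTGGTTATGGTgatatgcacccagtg
All 8 pore-forming members held such a match, and Kcnab2 and Kcne3 held none. Among all 21534 genes with a searched coding transcript 2.01% held a match, among the listed potassium channel pore genes 66 of 77, and among listed auxiliary genes 0 of 25.

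Of the 10 members, 3 were expressed, with a mean of 1 CPM or more over the 6 libraries: the inward rectifier gene Kcnj2, the auxiliary subunit gene Kcnab2 and the tandem-pore channel gene Kcnk6. The other 7 were near zero, with 14 counts together in the 3 depolarized libraries and 4 in the 3 polarized libraries, and no more than 4 counts for 1 gene in 1 library. Kcnk6 stood just inside the threshold with a mean of 1.07 CPM and fell below it without pair B, while Kcnn4, the next gene down, averaged 0.0709 CPM. Between genes, levels are compared here per kilobase of exon, as RPKM. Kcnj2 averaged 4.76 ± 0.990 RPKM (SD, n = 6), Kcnab2 1.55 ± 0.529 RPKM and Kcnk6 0.263 ± 0.113 RPKM, and the ranges of neighbours in this order did not overlap: 3.16 to 5.97 RPKM for Kcnj2, 0.960 to 2.18 RPKM for Kcnab2 and 0.137 to 0.405 RPKM for Kcnk6. Kcnn4 had 0 to 0.0965 RPKM, below every Kcnk6 value, and the 7 near-zero genes could not be ordered among themselves at this depth. These RPKM rest on the deposited exon lengths, which for Kcnn4 held 2034 bases, against 5115 in GENCODE M21. For Kcnj2 and Kcnab2 the 2 lengths were equal, at 5444 and 5578 bases. By mean RPKM, Kcnj2 ranked 3768 and Kcnab2 6156 among the 41388 genes.

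**Figure D1:**
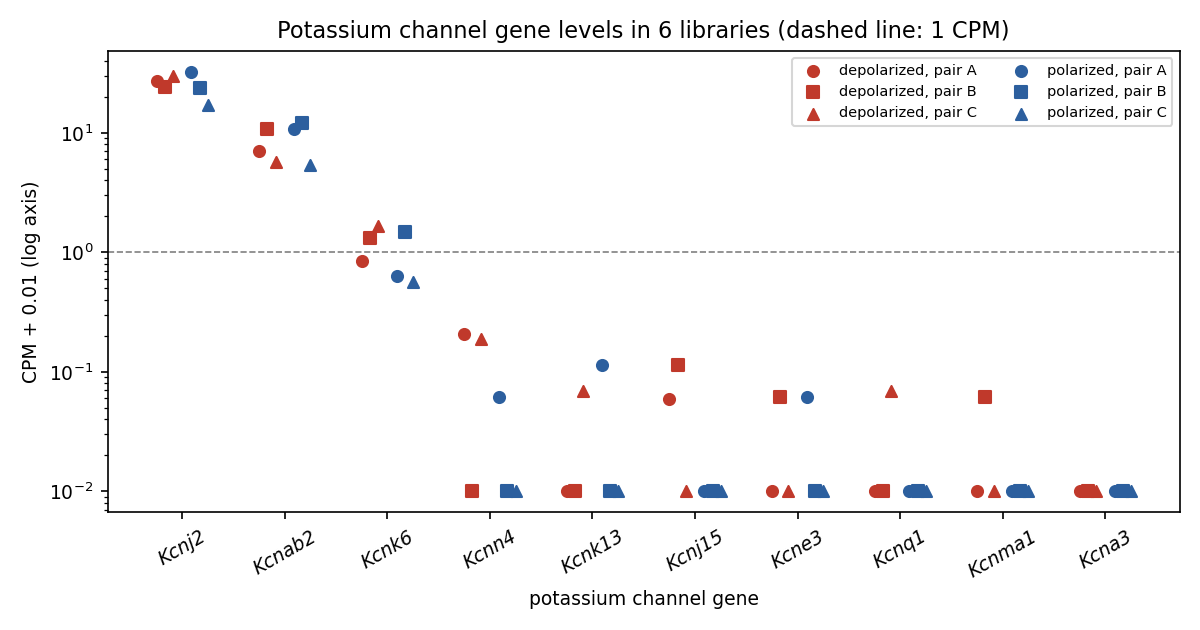
CPM plus 0.01 (log axis) of the 10 potassium channel genes in each library, with depolarized libraries in red left of the polarized ones in blue and the pair given by the symbol; the dashed line marks 1 CPM. Kcnj2, Kcnab2 and Kcnk6 lie around the line or above it, and the other 7 genes have at most 4 counts in any library.

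None of the expressed members differed between the sorted populations by the test. Of the 10 members, 3 had enough counts to be tested, and 0 were called by the quasi-likelihood test of edgeR, fitted with pair as a block, at an adjusted p under 0.05. Of these 3, 0 had an unadjusted p under 0.05, and DESeq2 with the block also called 0. Over all 9971 genes tested, 0.0802% were called higher and 0.241% lower in depolarized cells, 0.321% in all, so 0 calls among 3 genes says nothing particular of the members. Scaled by library totals alone, 0 genes were called higher and 6 lower, against 8 and 24 with TMM factors. The CPM ranges of the groups overlapped for all 3, while they did not overlap for 10.4% of all tested genes, 7.28% with the depolarized libraries above and 3.14% with them below. The median log2 fold change of these 3 genes, depolarized minus polarized, was 0.12, and that of all tested genes was 0.00.

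Kcnj2 encodes a strong inward rectifier known for setting the resting potential of muscle and other cells (GRCm38 chromosome 11, 111066164 to 111076821). It had 27.3, 24.4 and 30.1 CPM in depolarized libraries A, B and C, against 32.5, 23.96 and 17.2 CPM in the polarized libraries. The depolarized libraries lay close together, inside the range of the polarized ones, whose highest value was in pair A and lowest in pair C. The means were 27.3 ± 2.86 CPM in depolarized and 24.5 ± 7.68 CPM in polarized cells (SD, n = 3 each). Within the pairs, the ratio of CPM, depolarized over polarized, was 0.839 in pair A (95% counting interval 0.748 to 0.942), 1.02 in pair B (0.890 to 1.17) and 1.75 in pair C (1.52 to 2.02). Pairs A and C thus pointed in opposite directions with intervals that did not meet, and pair B lay at 1. The intervals are exact binomial and cover counting error only. After scaling by TMM factors the ratios were 0.877, 0.991 and 1.497, so pair B lay on the other side of 1 and pair C was smaller. The fitted log2 fold change was 0.12 ± 0.21 (SE), with a 95% interval of -0.31 to 0.56, or 0.804- to 1.47-fold, and the adjusted p from edgeR was 1. Leaving out pair C turned the sign, to -0.10 (adjusted p from edgeR 0.779). The polarized library of pair C, where Kcnj2 was lowest, was also the one with the highest early-stage sum, 354 CPM, and the part of this in the value was not tested.

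Among the 77 listed genes that form potassium pores, Kcnj2 supplied most of the transcript in every library. Over the 77 listed pore genes, it made up 77.1%, 79.3% and 71.5% of summed RPKM in depolarized libraries A, B and C, against 79.1%, 77.5% and 76.0% in the polarized libraries. The sum itself, most of which is Kcnj2, was 6.50, 5.65 and 7.74 RPKM in depolarized and 7.54, 5.68 and 4.15 RPKM in polarized libraries. The pore gene in second place was Kcnd1 in both libraries of pair A, Kcnk6 in both of pair B and Kcnj8 in both of pair C, at 0.280 to 0.406 RPKM. In depolarized library C Kcnk6 was level with Kcnj8, at 0.405 RPKM against 0.406 RPKM, from 28 and 15 counts, so the second place there is a tie. In polarized library A Kcnj8 came close to Kcnd1, at 0.331 RPKM against 0.372 RPKM, from 14 and 38 counts. The deposited exon length of Kcnj8 was 2188 bases, against 2548 in GENCODE M21.

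The genes whose levels were most like those of Kcnj2 over the 6 libraries were Spag9 (Pearson r = 0.986), Mctp2 (0.978) and Zfc3h1 (0.972), from log2 CPM of 5178 genes. With 6 libraries from 3 pairs, 39 genes had an r over 0.9, and these values are a description only.

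**Figure D2:**
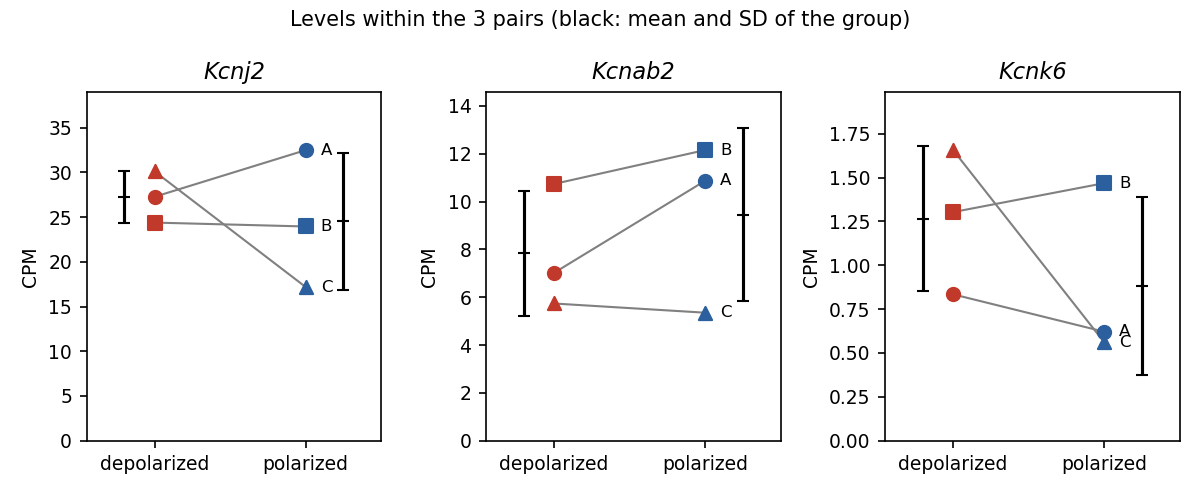
CPM of Kcnj2, Kcnab2 and Kcnk6 in the depolarized and polarized library of each pair, joined by a grey line and lettered by pair, with the mean and SD of each group (n = 3) in black; axes start at 0. The lines of Kcnj2 cross, with pair A lower and pair C higher in depolarized cells, and the groups overlap in all 3 panels.

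Kcnab2 encodes a cytoplasmic auxiliary subunit that binds voltage-gated channels of the Kcna family (chromosome 4, 152390742 to 152477871). It had 7.02, 10.7 and 5.74 CPM in depolarized libraries A, B and C, against 10.9, 12.2 and 5.35 CPM in the polarized libraries. Pair C was lowest in both populations and pair B highest, so the pairs differed among themselves more than the populations did. The ratio, depolarized over polarized, was 0.646 (95% counting interval 0.518 to 0.802) in pair A, 0.883 (0.725 to 1.077) in pair B and 1.07 (0.805 to 1.43) in pair C. With TMM scaling the ratio was below 1 in all 3 pairs (0.675, 0.860 and 0.916), so the direction in pair C turned with the scaling. The fitted log2 fold change was -0.31 ± 0.24 (SE), with a 95% interval of -0.82 to 0.21 (0.566- to 1.154-fold) and an adjusted p of 1 from edgeR. The listed Kcna pore genes, which this subunit is known to bind, had at most 4 counts each over the 6 libraries. Exons of Gm16334 on the same strand cover 2.24% of the Kcnab2 exons, and Gm16334 held 11 counts, against 968 for Kcnab2.

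Kcnk6 encodes a tandem-pore potassium channel known in macrophages as a path of potassium efflux (chromosome 7, 29221928 to 29232522). It had 17, 25 and 28 counts in depolarized libraries A, B and C, against 12, 25 and 11 counts in the polarized libraries. In CPM these were 0.834, 1.30 and 1.66 in depolarized and 0.621, 1.47 and 0.561 in polarized libraries, so the groups overlapped and pair B was level. The ratio, depolarized over polarized, was 1.34 (95% counting interval 0.605 to 3.08) in pair A, 0.888 (0.489 to 1.61) in pair B and 2.95 (1.43 to 6.57) in pair C. The interval lay off 1 in pair C alone, the pair in which Kcnj2 was also higher in depolarized cells. The fitted log2 fold change was 0.51 ± 0.51 (SE), with a 95% interval of -0.57 to 1.58 (0.672- to 3.00-fold). Its adjusted p from edgeR was 1. The log2 fold change was 0.11 when pair C was left out and 0.91 when pair B was left out.

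Both calcium-activated members were near zero in these ionomycin-treated cells. Kcnn4 encodes the intermediate-conductance channel that opens through bound calmodulin (chromosome 7, 24370263 to 24385209). It had 4, 0 and 3 counts in depolarized libraries A, B and C, against 1, 0 and 0 counts in the polarized libraries. Pair B had none in either population, and the groups overlapped at 0. The ratio of summed counts scaled by depth, 7 over 1, was 6.94 with a 95% counting interval of 0.891 to 313, so a difference was not detectable. In the fit that kept such low genes the adjusted p of Kcnn4 from edgeR was 0.982. Kcnma1, the pore gene of the large-conductance channel, had 1 count in depolarized library B and 0 in the other 5 libraries. The deposited exon lengths of Kcnn4 and Kcnma1 were 2034 and 6513 bases, against 5115 and 16976 bases in GENCODE M21. Reads from the exon bases outside the deposited models may be missing from these counts.

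Calm2 and Calm3 encode calmodulin, the calcium sensor of the Kcnn4 channel, and both were abundant. Calm2 averaged 474.7 ± 9.55 CPM in depolarized and 402.9 ± 55.3 CPM in polarized cells (SD, n = 3 each), and Calm3 averaged 119.5 ± 12.4 CPM in depolarized and 118.1 ± 26.2 CPM in polarized cells. Of 8 listed regulators of this channel, 6 were tested and 0 were called, with 0 at an unadjusted p under 0.05 in edgeR and 0 called by DESeq2, and their median log2 fold change was 0.05. The log2 fold change was -0.33 ± 0.21 (SE) for the phosphatidylinositol kinase gene Pik3c2b, with an adjusted p of 0.941 from edgeR, and 0.13 ± 0.18 for the phosphatase gene Mtmr6. In the fit that left out pair C, 10.1% of all tested genes were called (1018 of 10102), and among the 6 regulators Pik3c2b and Calm2 were. Nme2 (10 counts) and Phpt1 (4 counts) are uncertain, since same-strand exons of Gm20390 cover 48.9% of Nme2 and those of Mamdc4 cover 38.9% of Phpt1.

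The voltage-gated members were silent or nearly so. Kcna3, the main voltage-gated potassium channel gene of T cells, had 0 counts in every library, which allows up to 0.0531 CPM over the depolarized and 0.0536 CPM over the polarized libraries (3 counts over each group). The 6 listed T cell markers summed to 15.7 to 23.9 CPM in depolarized and 17.9 to 23.5 CPM in polarized libraries. Most of this was Cd3d, at 13.9 to 20.7 CPM, with Cd3g at 0.939 to 2.28 CPM. Cd3e, Lck, Cd2 and Cd5 were each under 1 CPM in every library, so the sum says little of T cells. Kcnq1 had 1 count, in depolarized library C, and its auxiliary subunit gene Kcne3 had 1 count in depolarized library B and 1 in polarized library A. Exons of the antisense gene Kcnq1ot1, which held 74 counts, cover 2.96% of the Kcnq1 exons, and the labels do not state whether the counting used strand.

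The remaining inward rectifier and tandem-pore members were also at the floor. Kcnj15 had 1 and 2 counts in depolarized libraries A and B and 0 in the other 4 libraries. Kcnk13, known from microglia, had 1 count in depolarized library C and 2 in polarized library A. A floor of 3 counts corresponds to 0.147 to 0.177 CPM in a single library, and every count of these 2 genes lay below it.

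Few genes of the wider family were expressed. Over the 102 listed potassium channel genes in the tables, 35 had 0 counts, 51 had 1 to 9 counts, 16 had 10 or more, and 7 (6.86%) reached a mean of 1 CPM, against 21.1% of all genes in the tables. By class, 1 of 15 inward rectifier genes, 1 of 14 tandem-pore genes, 2 of 40 voltage-gated genes, 0 of 8 calcium- or sodium-activated genes and 3 of 25 auxiliary genes did so. The 4 that are not among the 10 members, of 92 such genes listed, were Kcnrg, Kcnip3, Kcnd1 and Kcnh7. Of these 92 genes, 6 were tested and 0 were called by edgeR, with 0 at an unadjusted p under 0.05, and DESeq2 called 0. Their median log2 fold change was -0.24.

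**Figure D3:**
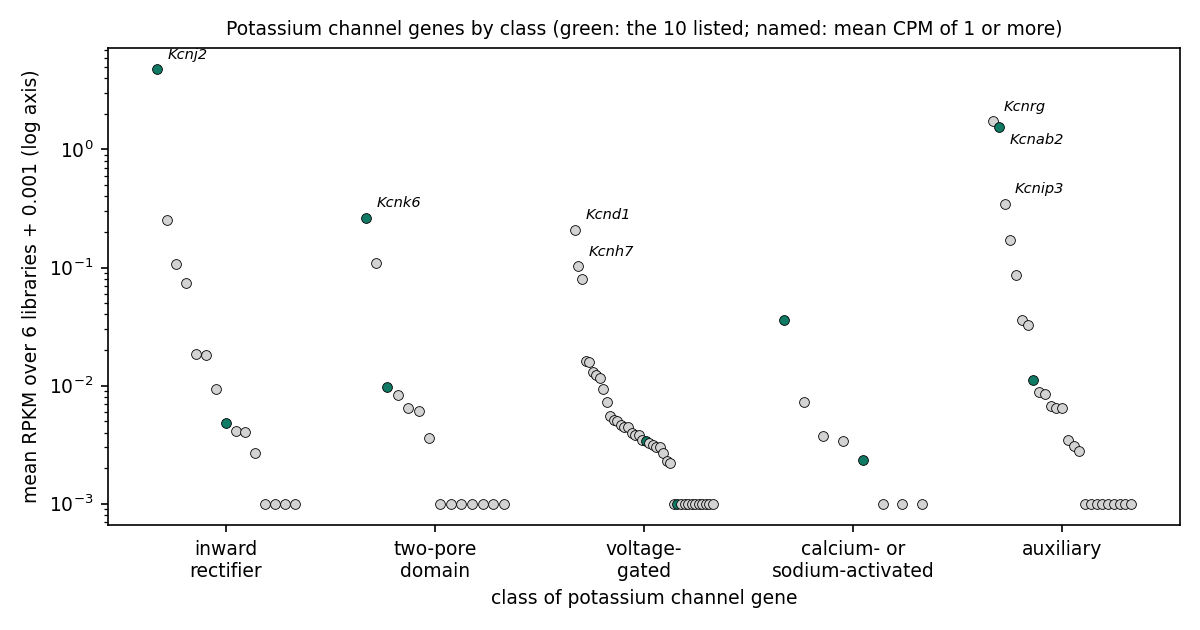
Mean RPKM over the 6 libraries plus 0.001 (log axis) for the 102 potassium channel genes in the tables, by class; each point is 1 gene, green for the 10 members, and genes with a mean of 1 CPM or more are named. Kcnj2 stands highest at 4.76 RPKM, and 35 genes lie at 0.

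Kcnrg, whose human counterpart encodes a soluble protein that hinders voltage-gated channels, had 2.21, 0.730 and 1.42 CPM in depolarized libraries A, B and C, against 2.23, 1.17 and 1.17 CPM in the polarized libraries. Pair A was high in both populations. The means were 1.452 ± 0.740 CPM in depolarized and 1.52 ± 0.607 CPM in polarized cells (SD, n = 3 each). Per kilobase it averaged 1.74 RPKM over all libraries, beside the 1.55 RPKM of Kcnab2. Its deposited exon length was 856 bases, against 1825 in GENCODE M21, so this comparison depends on the gene model. Its fitted log2 fold change was -0.18 ± 0.43 (SE).

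Kcnh7, a voltage-gated gene of the ether-a-go-go family, was the 1 expressed gene of the family whose groups did not overlap. It had 1.03, 1.04 and 1.36 CPM in depolarized libraries A, B and C, against 1.71, 2.47 and 1.68 CPM in the polarized libraries, and was lower in depolarized cells in all 3 pairs. Of all tested genes, 10.4% had groups that did not overlap in either direction, and 3.14% with the depolarized one below. Non-overlap in 1 of the 9 tested potassium channel genes is thus near the share over all genes. The log2 fold change was -0.82 ± 0.43 (SE), with a 95% interval of -1.73 to 0.08, and it did not pass the test, with an adjusted p of 0.834 from edgeR (0.283 to 1 over the alternatives). Its unadjusted p from edgeR was 0.0709 in the main fit and 0.0375 under a stricter filter, where the adjusted p was 0.737. These values rest on 64 counts in depolarized and 108 in polarized libraries, and antisense exons of Gca, which held 5696 counts, cover 4.57% of the Kcnh7 exons. The early-stage sums above were also lower in depolarized cells in all 3 pairs, and their part in this value was not tested.

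Kcnip3, which encodes a calcium-binding partner of voltage-gated channels, had 21, 12 and 18 counts in depolarized libraries A, B and C, against 18, 49 and 16 counts in the polarized libraries. The polarized library of pair B stood above the other 5, and the ratio in that pair was 0.217 (95% counting interval 0.105 to 0.415), against 1.11 in pair A and 1.31 in pair C. The log2 fold change was -0.63 ± 0.56 (SE), its adjusted p from edgeR was 1, and the sign turned without pair B, to 0.18. That same library had the highest sum of 7 eosinophil markers, 463.6 CPM, against 58.1 to 193.9 CPM in depolarized and 50.5 and 193.6 CPM in the other polarized libraries, with no marker at 0 in all libraries. Most of that sum was Prg2, at 388.7 CPM, and Epx, Ear1 and Ear2 were also highest there. By contrast, Siglecf was lowest there of the 6 libraries (5.87 CPM), and Il5ra was at 0 in all 3 polarized libraries. Ccr3, at 9.45 CPM there, was higher in depolarized libraries B and C, at 12.1 and 11.3 CPM. The part of these markers in the Kcnip3 value was not tested. Kcnd1, a voltage-gated gene, had 39, 11 and 10 counts in depolarized and 38, 15 and 13 counts in polarized libraries, so pair A was high in both populations.

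**Figure D4:**
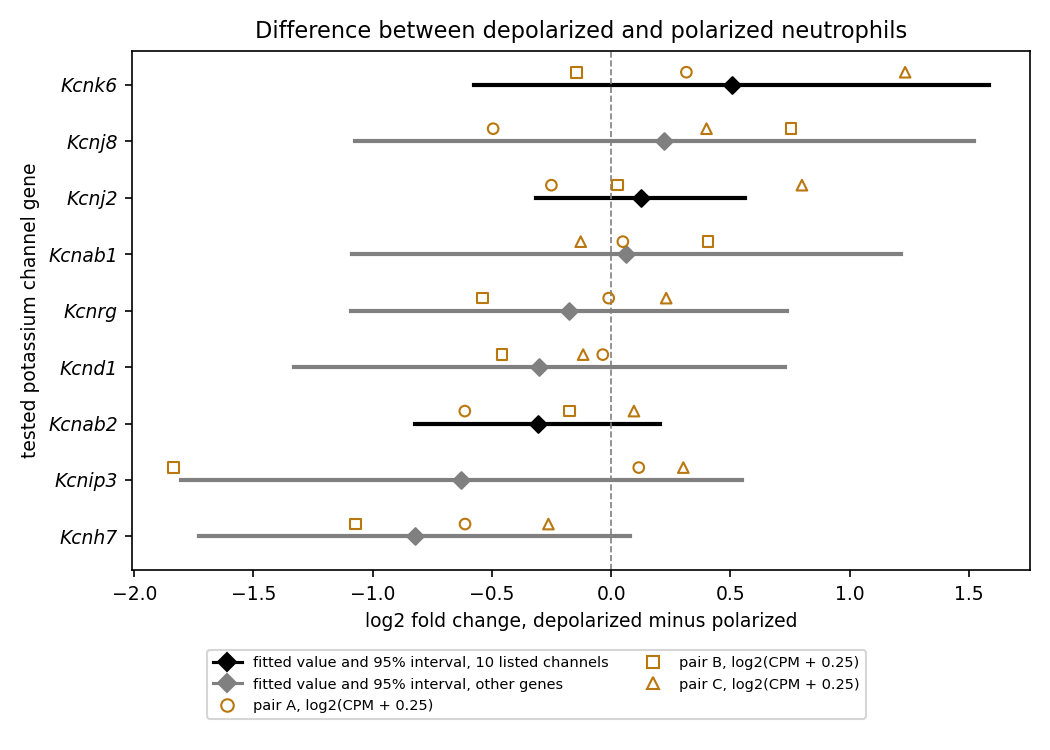
Log2 fold change, depolarized minus polarized, of the 9 tested potassium channel genes: diamonds and lines give the edgeR value and its 95% interval (black for the listed members, grey for other genes), and open symbols the difference within each pair as log2(CPM + 0.25). All 9 intervals include 0, and for Kcnh7 and Kcnd1 the 3 pairs lie below 0 in CPM. With TMM scaling the Kcnd1 ratio, depolarized over polarized, was 1.02 in pair A.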

How the data were processed

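Per the submitters' processing notes, the tools were STAR (2.0.4b), bcl2fastq, featureCounts (1.45) and Subread, and the build was GRCm38. Neither strand setting nor annotation release is stated there. The deposited counts are raw whole numbers per gene, 1 library per table. The deposited CPM values equal counts scaled to the library total (largest difference 4.8e-10), and the deposited RPKM values are those CPM per kilobase of the listed length. Symbols matched 40254 of 41388 genes. Exon overlaps and coding sequences came from GENCODE M21 (GRCm38).

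The counts were fitted with edgeR 4.0.16 under R 4.3.3: filterByExpr (9971 genes kept), TMM scaling and the quasi-likelihood F test with the pair as a block, which leaves 2 residual degrees of freedom. Calls are at a Benjamini-Hochberg adjusted p under 0.05 over all tested genes. Standard errors were derived from the log2 fold change and its F statistic. The fit was tested on simulated counts. The pairing comes from the series' design text and the code shared by titles. Deviations from group means correlated at r = 0.08, 0.27 and 0.03 within pairs A, B and C, so the values alone show little of it in pairs A and C. Libraries within a group differed beyond sampling noise (chi-square per degree of freedom 29.1 to 100). Alternatives were no block, DESeq2 1.42.0, other scalings and filters, and leaving out each pair. All 10 members, listed potassium channel genes at 1 CPM or more, the genes most like the highest member and overlapping genes were named. Members and lists were chosen with earlier results of these data known. PCR copies were not identified, so that intervals and floors speak for counting error alone. In 1 depolarized title, that of pair B, the run label reads run 1, against run 2 elsewhere, and its meaning is not given.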

Additional observations from a re-analysis of the deposited data

How the results depend on the processing

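Of the 10 alternative fits, 0 called a member or another listed potassium channel gene. The log2 fold changes of the 3 tested members kept their sign in 28 of 29 refits. The exception was Kcnj2, which ranged from -0.10 to 0.29 when a pair was left out, at -0.10 without pair C; the cause was not tested. Kcnk6 was not tested under the stricter filter. Of the 3 expressed members, Kcnk6 alone fell out under a mean of 1 RPKM, under 1 CPM in every library, and without pair B, which left 2, and the other 3 of the 6 alternatives left 3. The within-pair differences moved by less than their spread over pairs with both other pseudocounts. Over all genes the count of calls, 32 with the pairs as a replicate block, was 0 without the replicate block, 6 with library totals alone, 146 with no filter (among 21979 genes) and 11 with the stricter filter, and 45 to 1018 when a pair was left out, with 99 without pair A and 1018 without pair C. These fits without a pair have 1 residual degree of freedom, and the causes were not tested. Depth limits the near-zero members: without the filter 9 members were tested, and 0 had an unadjusted p under 0.05.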

Other observations

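Among listed potassium channel genes outside the 10 members that were too low to be tested, 3, picked after their values were seen, had a 95% counting interval of the ratio of summed counts that did not include 1. The share of such intervals over all low genes was not computed, nor was the share of low genes whose groups did not overlap. The intervals cover counting error only, while libraries within a group differed beyond sampling noise. Kcng2, which encodes a silent voltage-gated subunit, had 6, 5 and 13 counts in depolarized libraries A, B and C, against 2, 0 and 0 counts in the polarized libraries. The groups did not overlap, and the depth-scaled ratio of summed counts was 11.9 with a 95% counting interval of 2.95 to 104. In the fit that kept low genes its unadjusted p was 0.0151 and its edgeR adjusted p 0.614, so it was not called. Antisense exons of D330025C20Rik cover 9.10% of its exons. Kcnh5, a voltage-gated gene of the ether-a-go-go family, had 3, 2 and 2 counts in depolarized libraries and 0 in each polarized library, so the groups did not overlap, and the lower bound of the counting interval was 1.43. Kcnmb3, an auxiliary subunit gene of large-conductance channels, had 0, 1 and 1 counts in depolarized libraries, against 5, 1 and 6 counts in polarized libraries, and the groups met at 1 count. Groups also did not overlap in CPM for Kcnip4, with 0 counts in each depolarized and 1 in each polarized library. For Kcnj5, with 3, 3 and 1 counts in depolarized libraries against 1, 1 and 0 in polarized libraries, the groups met at 1 count. Their CPM differed there by library total alone, at 0.0592 in depolarized library C against 0.0587 in polarized library B.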
